A study of Mus musculus with 6 samples.

Results

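Helper T cells speak to B cells and to each other through ligands and receptors of the tumor necrosis factor (TNF) family, and 10 genes of this family were examined in T follicular helper (Tfh) cells. They were chosen by symbol, as the ligands *Cd40lg*, *Tnfsf8*, *Tnfsf11*, *Tnfsf14* and *Fasl* and the receptors *Tnfrsf4*, *Tnfrsf9*, *Cd27*, *Tnfrsf1b* and *Tnfrsf25*, and make up 10 of the 14744 genes with deposited values. Each of the 10 passed a filter on low values, a normalized count of at least 10 in at least 3 libraries, that kept 11296 genes.

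RNA was sequenced from Tfh cells of the mesenteric lymph nodes (MLNs), sorted as CD4+ B220- cells bearing CD44, PD-1 and CXCR5, at 10000 to 30000 cells per sample. WT mice gave 3 libraries, and 3 came from the Bach2 fl/fl Cd4-cre genotype, all labelled as C57BL/6 (a C57BL/6J background in the methods), at an age of 2 to 3 months. Cre under the control of *Cd4* acts from the thymus on, so CD8+ T cells and regulatory T cells of these mice carry the deletion too. The study uses the name WT for littermates with Cd4-Cre, so the groups may share that transgene. The values are read counts per gene divided by a size factor of each library, called normalized counts here, and the question was how the messages for B cell help differ between the groups.

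TNF ligands are trimeric proteins, mostly on the cell surface, and their receptors pass the signal on through TRAF adaptors or, for receptors with a death domain, through FADD and caspases. CD40 ligand on Tfh cells engages CD40 on germinal center B cells and is required for the germinal center response. OX40 and 4-1BB, the products of *Tnfrsf4* and *Tnfrsf9*, are induced on T cells by antigen and prolong their survival, and both are also abundant on regulatory T cells.

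The deleted gene served as a check of the labels. *Bach2* was at 233, 222 and 105 normalized counts in WT replicates 1, 2 and 3 and at 399, 763 and 591 in replicates 1, 2 and 3 of the other group. It was higher, not lower, in each library of the other group, with a log2 ratio of 1.68 ± 0.37 (SE; limma adjusted p = 0.141) and, in DESeq2 on 5 libraries, of 1.81 (DESeq2 adjusted p = 0.00123; range over all alternatives 0.000186 to 0.501). Counts are per gene and take in exons outside the deleted ones, so they do not show whether the deleted exons were gone. As the gene runs counter to its label, the term used throughout is the libraries labelled Bach2-deficient, and every direction given for them rests on that label. The study reports, by flow cytometry, a shift toward Foxp3- cells among follicular T cells of Bach2-deficient mice. It also reports lower *Foxp3* and *Il17f* messages, from RNA sequencing under these same labels. Here, *Foxp3* was at 222, 315 and 344 normalized counts in WT and at 47.3, 140.0 and 91.0 in the other group. *Il17f* was lower without overlap too. Both genes ran with the labels. As the reported messages come from these same libraries, this is not a separate check of the labels. An exchange of labels was not tested.

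WT replicate 1 stood apart. Values above 0 were found for 11648 genes in it and for 13111 to 13567 in each other library, and it had the lowest weight of the 6 when libraries were weighted by their scatter, 0.206. Among the 3 WT libraries it was the lowest for each of the 5 ligands and the highest for *Tnfrsf4*, *Tnfrsf9* and *Tnfrsf1b*. The main results are therefore given with and without it. Normalized counts summed to between 7361229 and 8135325 per library, and the reads recovered for the 5 other libraries to between 5045131 and 10987752.

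All 14 markers of Tfh and CD4 T cells were above 0 in all 6 libraries. They summed to 69251, 71407 and 94321 normalized counts in WT and to 66743, 59253 and 69665 in the libraries labelled Bach2-deficient, with *Cd3d* the most abundant. At an unadjusted p under 0.05 4 of the 14 were higher and 3 lower. *Cxcr5*, a marker of the sort, was at 1613, 1444 and 2039 in WT and at 2028, 1271 and 2207 in the other group, which overlapped. *Pdcd1*, the gene of PD-1, was at 2708, 1594 and 2403 in WT and at 2159, 1462 and 1927 in the other group, and overlapped too. Of the remaining sort markers on the list, *Cd4* and *Cd44* were higher without overlap, *Cd4* at 2500.1, 2407 and 2792 against 4131, 3341 and 3349, and *Cd44* at 1090.1, 1776 and 1741 against 3856, 2615 and 2313. *Cd3e*, a chain of the T cell receptor complex, was lower without overlap, at 10623, 9648 and 11924 against 4534, 5238 and 6139.8.

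With limma on log2(normalized count + 1), 0 of the 10 members passed the study's thresholds, an adjusted p under 0.01 together with more than a 2-fold change, and so did 0 of all genes tested (0.0%). The study applied these thresholds to another test, DESeq2 on counts. In limma here the smallest adjusted p of any gene was 0.141. On reads recovered from 5 libraries, edgeR called 0 members and DESeq2 called 1, *Tnfrsf9*. At an unadjusted p under 0.05 limma had 2 members lower in the libraries labelled Bach2-deficient, *Tnfrsf4* and *Tnfrsf9*, beside 10.2% of all genes tested. It had 1 member higher, *Tnfsf11*, beside 10.1% of all genes. The groups did not overlap for 2 members, both lower, where 12.2% of all genes were lower without overlap, and for 0 members higher, where 14.6% of all genes were. With 10 members, counts this close to those shares are not a result about the list. The median log2 ratio was 0.23 over the members and 0.082 over all genes tested, and the members' median was -0.27 without WT replicate 1 and -0.075 with quantile normalization, under which *Fasl* and *Tnfrsf25* changed sign. By role it was 0.51 over the 5 ligands and -0.33 over the 5 receptors, and without WT replicate 1 it was 0.11 and -0.49. For a single gene, 3 libraries against 3 allow no exact 2-sided permutation p below 0.1.

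**Figure D1:**
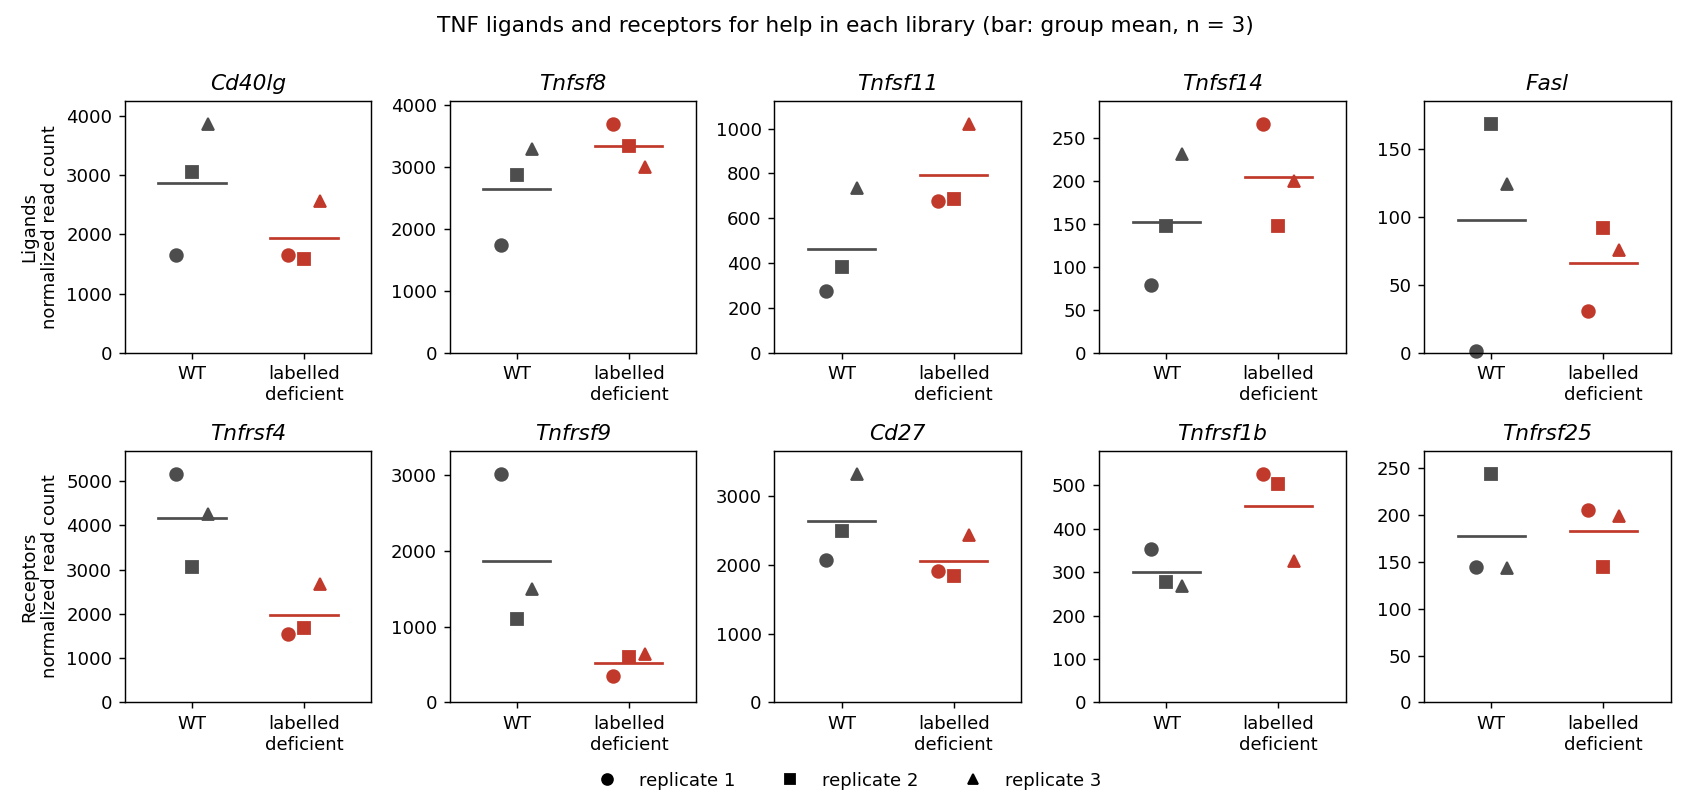
Normalized read counts (vertical axis, from 0) of the 5 ligands (top) and 5 receptors (bottom) in 3 WT libraries (grey) and 3 libraries labelled Bach2-deficient (red), with a bar at each group's mean and a marker shape for each replicate number. *Tnfrsf4* and *Tnfrsf9* are the members whose groups do not overlap, and WT replicate 1 (grey circle) is the lowest WT library for each ligand.

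*Tnfrsf9* encodes 4-1BB, a costimulatory receptor of activated T cells, and lies on the plus strand of chromosome 4 at chr4:150914562-150946102 (GRCm38). It was at 3020 (WT replicate 1), 1096 and 1492 normalized counts in WT and at 343, 600.4 and 632 in the libraries labelled Bach2-deficient. Every library labelled Bach2-deficient was below every WT library, and WT replicate 1 was far above the other 2 WT libraries. The means were 1869 ± 1016 (SD, n = 3) and 525 ± 159 (SD, n = 3). This was a log2 ratio of -1.75 ± 0.37 (SE), with a 95% confidence interval of -2.58 to -0.92 and a limma adjusted p of 0.141, or 3.36-fold on this scale. Without WT replicate 1 the ratio was -1.33 (limma adjusted p = 0.138). In DESeq2 on 5 libraries it was -1.33 too and past the thresholds (DESeq2 adjusted p = 0.00521; range over all alternatives 0.000559 to 0.501), beside 0.505% of all genes called lower in that test. *Camta1* overlaps the gene on the opposite strand, but the exons of these genes share 0 bases in the annotation, and *Camta1* was at 98.9 to 239.9 normalized counts across the libraries.

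*Tnfrsf4* encodes OX40, a receptor that sustains T cell responses, and lies at chr4:156013843-156016612 on the plus strand. Its normalized counts were 5171, 3052 and 4258 in WT and 1543, 1685 and 2667 in the libraries labelled Bach2-deficient. The groups did not overlap, and the nearest libraries were WT replicate 2 and replicate 3 of the other group. The means were 4160.4 ± 1063 (SD, n = 3) and 1965 ± 612 (SD, n = 3). The log2 ratio was -1.09 ± 0.27 (SE), with a 95% confidence interval of -1.68 to -0.50 and a limma adjusted p of 0.141. It was -0.92 both without WT replicate 1 (limma adjusted p = 0.151) and in DESeq2 on 5 libraries (DESeq2 adjusted p = 0.0531; range over all alternatives 0.000342 to 0.501). In bulk RNA, fewer cells bearing a message and less of it per cell cannot be told apart.

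Markers of regulatory T cells, which carry both receptors, were set beside these values. Of 7 such markers 1 was lower at an unadjusted p under 0.05, *Foxp3*, at 222, 315 and 344 normalized counts in WT and at 47.3, 140.0 and 91.0 in the libraries labelled Bach2-deficient. The 7 summed to 5747, 6448 and 7906 in WT and to 7263, 5742 and 4930 in the other group, with *Ikzf2* the most abundant, and none of the 7 was at 0 in any library. *Ctla4* was lower without overlap, at 729, 789 and 940 against 621, 602 and 648 (limma unadjusted p = 0.0911). The groups overlapped for every marker but *Foxp3* and *Ctla4*. Most of each sum was *Ikzf2*, at 3394, 4160 and 5358 in WT and at 5448, 3538 and 3080 in the other group. *Foxp3* was thus lower together with *Tnfrsf4* and *Tnfrsf9*, while the sums, mostly *Ikzf2*, overlapped. WT replicate 1, highest for both receptors, was lowest of the WT libraries for *Foxp3*. The part of these cells in the receptor values was not tested.

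*Cd27* encodes the receptor for CD70, which costimulates T cells. It was at 2069, 2498 and 3330 normalized counts in WT and at 1911, 1845 and 2432 in the libraries labelled Bach2-deficient. The groups overlapped through WT replicate 1. The log2 ratio was -0.33 ± 0.22 (SE; limma adjusted p = 0.397), and -0.49 without WT replicate 1. *Cd27* overlaps *Vamp1* on the other strand with 0 shared exon bases, and the microRNA gene *Mir8113* on its own strand over 129 of its 2328 exon bases, so reads from there cannot be told apart.

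*Tnfrsf1b* encodes TNF receptor 2, through which TNF costimulates T cells. Its normalized counts were 354, 277 and 268 in WT and 528, 504 and 325 in the libraries labelled Bach2-deficient. Replicates 1 and 2 of the latter were above all WT libraries, and replicate 3 lay within the WT range. The log2 ratio was 0.57 ± 0.28 (SE; limma adjusted p = 0.271), and 0.70 without WT replicate 1 (limma adjusted p = 0.220; range over all alternatives 0.00297 to 0.625).

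*Tnfrsf25* encodes DR3, the death domain receptor for TL1A. It was at 144, 245 and 143 normalized counts in WT and at 205, 145 and 199 in the libraries labelled Bach2-deficient. The groups overlapped. A log2 ratio of 0.075 ± 0.34 (SE; limma adjusted p = 0.918) was far smaller than its error, and was -0.049 without WT replicate 1.

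Among the ligands, *Cd40lg* had the highest mean per kb of transcript. It encodes CD40 ligand and lies on the plus strand of chromosome X at chrX:57212143-57224042. It was at 1658, 3051 and 3862 normalized counts in WT and at 1645, 1575 and 2568 in the libraries labelled Bach2-deficient. WT replicate 1 lay among the libraries labelled Bach2-deficient, and the other 2 WT libraries were above all of them. The log2 ratio was -0.52 ± 0.32 (SE), with a 95% confidence interval of -1.22 to 0.19 and a limma adjusted p of 0.360. Leaving out WT replicate 1 gave -0.87 (limma adjusted p = 0.151), and DESeq2 on 5 libraries gave -0.87 (DESeq2 adjusted p = 0.0583; range over all alternatives 0.000675 to 0.956).

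Ratios also ran with transcript length. Spearman's rho between the log2 ratio and the length of the longest transcript was 0.322 over 11179 genes, and genes are not independent replicates. After a trend in length and GC content had been removed per library, *Cd40lg* was at 0.043 (limma adjusted p = 0.956), while *Tnfrsf4* was at -0.88 and *Tnfrsf9* at -1.42. *Bach2*, used above to check the labels, was then at 1.24 (limma adjusted p = 0.224).

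*Tnfsf11* encodes RANK ligand, best known for driving osteoclast formation and also made by activated T cells. Its normalized counts were 275, 383 and 733 in WT and 678, 686 and 1021 in the libraries labelled Bach2-deficient. WT replicate 3 lay within the range of the other group, while the other 2 WT libraries were below it. The log2 ratio was 0.87 ± 0.35 (SE), with a 95% confidence interval of 0.093 to 1.65 and a limma adjusted p of 0.207. Without WT replicate 1 it was 0.56 (limma adjusted p = 0.330), and after removal of the length and GC trend 1.25 (limma adjusted p = 0.222; range over all alternatives 0.163 to 0.507).

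*Tnfsf8* encodes CD30 ligand, made by activated T cells. It was at 1743, 2865 and 3293 normalized counts in WT and at 3690.4, 3340.2 and 2996 in the libraries labelled Bach2-deficient. Apart from WT replicate 1, the lowest of the 6, the groups lay close and overlapped. Their log2 ratio was 0.39 ± 0.25 (SE; limma adjusted p = 0.376), and 0.12 without that library.

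*Tnfsf14* encodes LIGHT, which binds HVEM and the lymphotoxin beta receptor. It was at 78.7, 147 and 231 normalized counts in WT and at 266, 147 and 199 in the libraries labelled Bach2-deficient. The groups overlapped, and WT replicate 1 was again the lowest of the 6. A log2 ratio of 0.51 ± 0.43 (SE; limma adjusted p = 0.498) was found, and one of 0.11 without WT replicate 1.

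*Fasl* encodes Fas ligand, which triggers death of cells bearing Fas. It was at 1.01, 168 and 124 normalized counts in WT and at 31.0, 91.8 and 75.7 in the libraries labelled Bach2-deficient. WT replicate 1 was near 0, and the other 2 WT libraries were above all libraries labelled Bach2-deficient. The direction rests on that library, with a log2 ratio of 0.81 ± 1.41 (SE; limma adjusted p = 0.761) in all 6 and of -1.25 without it (limma adjusted p = 0.215; range over all alternatives 0.184 to 0.953).

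The 9 markers of CD8 T and NK cells, which also make Fas ligand, summed to 6535, 4439 and 3665 normalized counts in WT and to 1618, 3669 and 2249 in the other group. Of the 9, 1 was higher and 2 were lower at an unadjusted p under 0.05. The highest sum, in WT replicate 1, came mainly from *Nkg7*, the most abundant, at 5536 there. Like *Fasl*, 5 of the 9 were lowest of all 6 libraries in WT replicate 1, *Cd8a* at 48.4, *Cd8b1* at 127, *Gzmb* at 2.02 and *Klrd1* and *Ncr1* at 0. *Nkg7*, *Eomes* at 507 and *Prf1* at 199.8 were highest of all 6 there. The CD4+ gate of the sort should remove CD8 T and NK cells, and their part in the *Fasl* values was not tested.

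**Figure D2:**
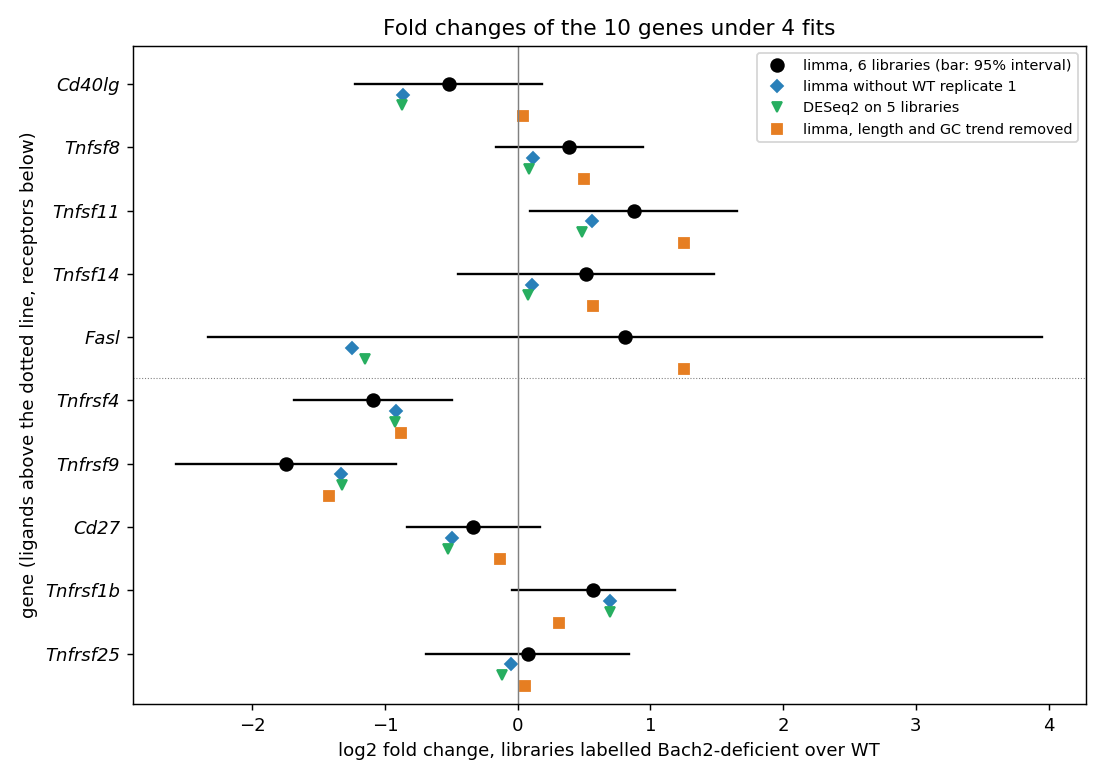
Log2 ratios (horizontal axis, libraries labelled Bach2-deficient over WT) of the 10 genes in limma on 6 libraries (black, bar for the 95% confidence interval), limma without WT replicate 1 (blue), DESeq2 on 5 libraries (green) and limma after removal of a length and GC trend (orange). *Tnfrsf4* and *Tnfrsf9* lie below 0 in all 4, *Fasl* and *Tnfrsf25* change side without WT replicate 1, and *Cd40lg* is at 0.043 after removal of the trend.

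Without WT replicate 1, limma had 4 members lower at an unadjusted p under 0.05, *Cd40lg*, *Fasl*, *Tnfrsf4* and *Tnfrsf9*, beside 9.42% of all genes tested. On reads of 5 libraries 5 members were, these 4 and *Cd27*, beside 8.77% of all genes in edgeR and 9.45% in DESeq2. *Tnfrsf1b* was higher at this level in these 3 fits, and *Tnfsf11* was not. Of all genes, 1097 of 11171 were higher in limma without WT replicate 1, 1079 of 11296 in edgeR and 1091 of 11295 in DESeq2. A fit that weights each library by its scatter had 3 members lower past the thresholds of an adjusted p under 0.01 and over 2-fold, *Cd40lg*, *Tnfrsf4* and *Tnfrsf9*, beside 5.02% of all genes. In that fit 22.8% of all genes were lower and 24.3% higher at an unadjusted p under 0.05. With *Cd27* 4 members were lower at that level, and 1, *Tnfrsf1b*, was higher. The fit gave replicate 2 labelled Bach2-deficient a weight of 5.54, over 2 times that of any other library.

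Levels of different genes were set side by side as normalized counts per kb of the longest transcript. In WT the order was *Tnfrsf4* at 3817 ± 975 (SD, n = 3), *Cd40lg* at 2286 ± 892, *Cd27* at 1688 ± 411, *Tnfrsf9* at 884 ± 480.3 and *Tnfsf8* at 692 ± 210.3 per kb. The remaining 5 were *Tnfsf11* at 207 ± 107, *Tnfrsf25* at 107 ± 35.0, *Tnfsf14* at 82.4 ± 41.3, *Tnfrsf1b* at 78.5 ± 12.4 and *Fasl* at 50.4 ± 44.7. Of neighbours in this order, *Tnfsf8* and *Tnfsf11* were apart by more than their SDs, and no other pair was. Without WT replicate 1 *Fasl* was at 75.4 per kb in WT, above *Tnfrsf1b* at 71.4.

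In the libraries labelled Bach2-deficient *Tnfrsf4*, *Cd40lg* and *Cd27* again led, at 1803 ± 562, 1543 ± 444 and 1323 ± 206 per kb (SD, n = 3). *Tnfrsf9*, at 248 ± 75.0 per kb, came after *Tnfsf8* at 878 ± 91.2 and *Tnfsf11* at 356 ± 87.4, though it was not apart from *Tnfsf11* by more than the SDs. Its WT rank rests on WT replicate 1, without which it was at 612 per kb in WT, below *Tnfsf8* at 809. *Tnfrsf1b* at 118 ± 29.0, *Tnfsf14* at 111 ± 32.2, *Tnfrsf25* at 110.3 ± 20.1 and *Fasl* at 34.2 ± 16.3 per kb came last. Neighbours apart by more than their SDs were *Cd27* and *Tnfsf8*, *Tnfsf8* and *Tnfsf11*, *Tnfrsf9* and *Tnfrsf1b*, and *Tnfrsf25* and *Fasl*. Per kb, the 5 receptors summed to 3.94, 1.46 and 1.54 times the 5 ligands in WT and to 1.12, 1.26 and 1.31 times in the libraries labelled Bach2-deficient. The ratio was lower in each of the latter, and WT replicate 1 stood far above the rest. It partly restates single genes, as *Tnfrsf4* was the largest part of the receptor sum in both groups. *Tnfrsf4*, *Tnfrsf9* and *Cd27* had lower means in the libraries labelled Bach2-deficient, while *Tnfrsf1b* and *Tnfrsf25* had higher ones.

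**Figure D3:**
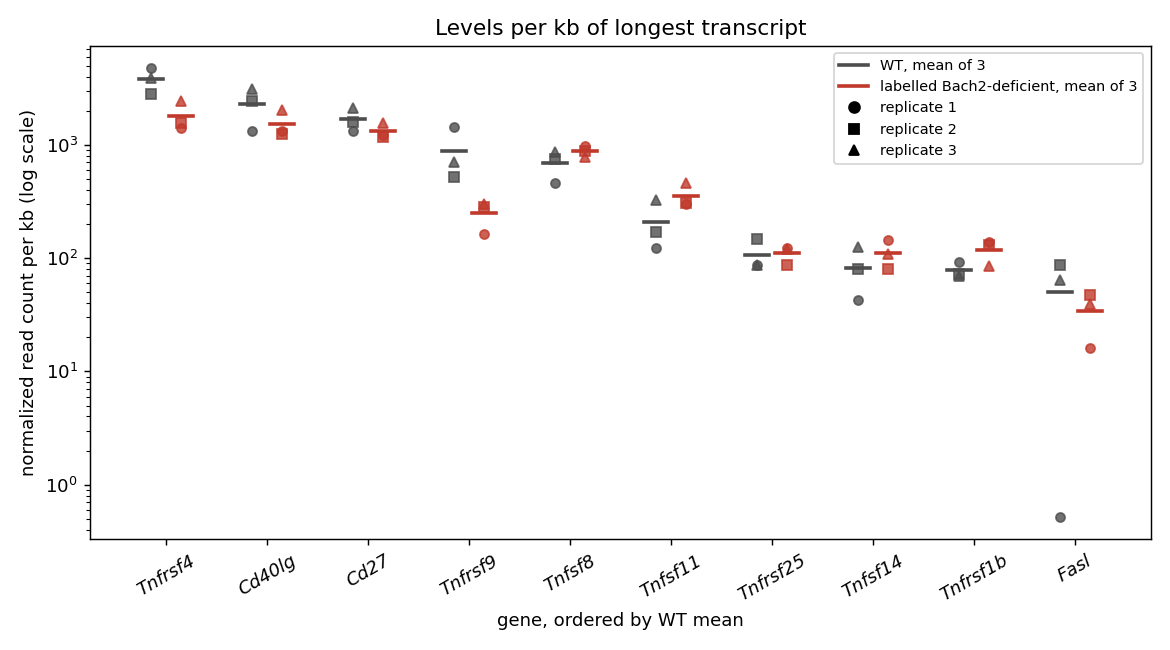
Normalized counts per kb of longest transcript (log axis) of the 10 genes, ordered by WT mean, with each library as a point and the mean of 3 as a bar, for WT (grey) and libraries labelled Bach2-deficient (red). *Tnfrsf9* is at rank 4 in WT (rank 5 without replicate 1) and at rank 6 in the other group, and WT replicate 1 (grey circle) is lowest for *Fasl*.

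Of the 10 members 5 lie on chromosome 4. With the wider family, 7 TNF receptor genes lie there between bases 145213463 and 156028895, a grouping made after the values were seen. At an unadjusted p under 0.05 3 of these 7 were lower, the 2 members already described, *Tnfrsf9* and *Tnfrsf4*, and *Tnfrsf18*, beside 10.2% of all genes tested. *Tnfrsf18* encodes GITR, a receptor abundant on regulatory T cells, and starts 9551 bases past the end of *Tnfrsf4* on the same strand. It was at 1385, 1088 and 1620.1 normalized counts in WT and at 643, 814 and 982 in the libraries labelled Bach2-deficient. The groups did not overlap, with a log2 ratio of -0.75 ± 0.24 (SE; limma adjusted p = 0.158), and of -0.73 without WT replicate 1.

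Promoters of the members were read from RefSeq on GRCm38.p6, 250 bases before to 50 after each start, and 9 members had 11 such entries. They were searched for TGANTCA, a motif read by Bach and AP-1 factors that is its own reverse complement, so that 1 search covers both strands. It was found in 2 of the 11, 1 of the 2 starts of *Tnfrsf9* and the start of *Tnfsf14*, and in 7.81% of all 32851 promoters. A match describes the letters and is not a binding site. Shown are both promoters with a match and that of *Tnfrsf4*, the other receptor that was lower without overlap, with the motif in capitals. They lie at chr4:150927749-150928048 (plus strand), chr17:57194132-57194431 (minus strand) and chr4:156013445-156013744 (plus strand).
Tnfrsf9: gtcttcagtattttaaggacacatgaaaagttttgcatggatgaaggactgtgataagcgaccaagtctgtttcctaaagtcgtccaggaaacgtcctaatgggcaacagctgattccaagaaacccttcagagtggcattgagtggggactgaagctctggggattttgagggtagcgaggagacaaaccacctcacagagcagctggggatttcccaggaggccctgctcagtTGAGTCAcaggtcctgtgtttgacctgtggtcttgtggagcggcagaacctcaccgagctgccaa
Tnfsf14: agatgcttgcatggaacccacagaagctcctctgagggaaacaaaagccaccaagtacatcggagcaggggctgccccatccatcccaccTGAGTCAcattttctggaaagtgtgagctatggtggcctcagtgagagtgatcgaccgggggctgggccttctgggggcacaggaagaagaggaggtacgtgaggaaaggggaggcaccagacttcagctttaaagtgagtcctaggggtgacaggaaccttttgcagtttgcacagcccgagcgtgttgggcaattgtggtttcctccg
Tnfrsf4: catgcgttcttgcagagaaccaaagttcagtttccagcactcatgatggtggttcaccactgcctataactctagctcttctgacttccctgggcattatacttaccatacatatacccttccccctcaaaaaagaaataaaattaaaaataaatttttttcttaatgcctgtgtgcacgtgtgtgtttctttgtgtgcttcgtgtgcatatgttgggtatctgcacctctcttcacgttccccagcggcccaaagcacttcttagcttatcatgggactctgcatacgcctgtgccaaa
The first base of the motif is 15 bases before the start of *Tnfrsf9* and 160 bases before that of *Tnfsf14*. Of these 3 genes, *Tnfrsf9* and *Tnfrsf4* were lower without overlap, and *Tnfsf14* overlapped between the groups.

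The partners that bind the members were examined next. *Tnfsf4* encodes OX40 ligand, the ligand of the *Tnfrsf4* product, known mainly from antigen-presenting cells and also made by activated T cells. It was at 384, 86.4 and 71.7 normalized counts in WT and at 4.43, 23.5 and 7.16 in the libraries labelled Bach2-deficient. The groups did not overlap, and WT replicate 1 was over 4 times any other library. The log2 ratio was -3.71 ± 0.83 (SE), with a 95% confidence interval of -5.55 to -1.88 and a limma adjusted p of 0.141, and it was -2.96 without WT replicate 1 (limma adjusted p = 0.143; range over all alternatives 0.00796 to 0.501).

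*Tnf*, whose product binds the receptor from *Tnfrsf1b*, was at 499.6, 284 and 252 normalized counts in WT and at 154, 167 and 204 in the other group. It was lower without overlap, with a log2 ratio of -0.92 ± 0.33 (SE; limma adjusted p = 0.178), and of -0.62 without WT replicate 1, where its unadjusted p was above 0.05. *Tnfsf9*, the gene of 4-1BB ligand, was at 112, 164 and 227 in WT and at 105, 123 and 86.9 in the other group. The groups overlapped through WT replicate 1, and the log2 ratio was -0.63 ± 0.38 (SE; limma adjusted p = 0.358) with that library and -0.89 without it, where the unadjusted p was 0.0256 (limma adjusted p = 0.211; range over all alternatives 0.0331 to 0.654). *Fas*, the receptor of Fas ligand, was at 664 to 1819.7 normalized counts in WT and at 874 to 1165 in the other group. *Cd40*, mainly a receptor of B cells and other antigen-presenting cells, was at 0 to 75.2 in WT and at 4.09 to 39.5 in the other group. *Tnfrsf11a*, *Cd70* and *Tnfsf15* did not pass the filter, *Tnfrsf11b* had no values here, and *Lta*, *Tnfrsf8*, *Tnfrsf14* and *Ltbr* had an unadjusted p over 0.05.

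Of the 36 other TNF ligands and receptors listed 29 had values and 23 were tested. At an unadjusted p under 0.05 3 were lower, *Tnfsf4*, *Tnf* and *Tnfrsf18*, and 1 was higher, *Tnfrsf26*, at 415, 652 and 864 normalized counts in WT and at 1119, 1024.5 and 881 in the libraries labelled Bach2-deficient. Its groups did not overlap, and the log2 ratio was 0.70 ± 0.28 (SE; limma adjusted p = 0.204), and 0.42 without WT replicate 1. *Tnfrsf26* has close copies in *Tnfrsf22* and *Tnfrsf23*, so its reads are uncertain. These counts stand beside 10.2% lower and 10.1% higher of all genes tested. Without WT replicate 1 3 were lower, *Tnfsf9* in place of *Tnf*, and 0 higher. The median log2 ratio of the 23 was 0.0077, against 0.082 for all genes tested, and -0.20 without WT replicate 1.

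All 23 adaptors and regulators listed were tested. At an unadjusted p under 0.05 4 were higher and 2 lower, beside 10.1% and 10.2% of all genes tested, and their median log2 ratio was 0.13. Without WT replicate 1 5 were higher and 1 lower. *Cflar*, the gene of the caspase 8 inhibitor c-FLIP, was at 403, 885 and 742 normalized counts in WT and at 1478, 1323 and 1043 in the other group. *Rbck1*, a part of the linear ubiquitin ligase complex, was at 422, 453 and 421 and at 835, 588 and 719. *Traf3*, a brake on noncanonical NF-kappaB, was at 163, 270.3 and 228 and at 565, 385 and 297. For these 3 the groups did not overlap, and the log2 ratios were 0.98, 0.71 and 0.89 (limma adjusted p = 0.152, 0.158 and 0.182). Without WT replicate 1 they were 0.65, 0.69 and 0.69. *Fadd*, the adaptor of death receptors, was at 7.07, 47.1 and 76.9 in WT and at 157, 119 and 95.1 in the other group. It was higher without overlap, with a log2 ratio of 1.97 ± 0.77 (SE; limma adjusted p = 0.203), and of 0.99 without WT replicate 1.

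*Casp8*, the caspase that FADD recruits, was at 1924, 1876 and 1957 normalized counts in WT and at 1066, 1282 and 1771 in the other group. The groups did not overlap, with a log2 ratio of -0.51 ± 0.22 (SE; limma adjusted p = 0.227), and of -0.51 without WT replicate 1, where the unadjusted p was 0.0583. *Tank*, the gene of a protein that binds TRAFs, was at 1826, 3412 and 4360.0 in WT and at 1373, 1608 and 2392 in the other group, and the groups overlapped through WT replicate 1. Its log2 ratio was -0.79 ± 0.33 (SE; limma adjusted p = 0.217), and DESeq2 on 5 libraries gave -1.14, past the thresholds (DESeq2 adjusted p = 0.00904; range over all alternatives 0.000344 to 0.583). After removal of the length and GC trend 0 of the 23 were lower at an unadjusted p under 0.05, *Casp8* lying at -0.24 and *Tank* at -0.38. *Traf3* was then at 0.32 with an unadjusted p of 0.230, and 4 were still higher at this level because *Traf5* took its place.

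**Figure D4:**
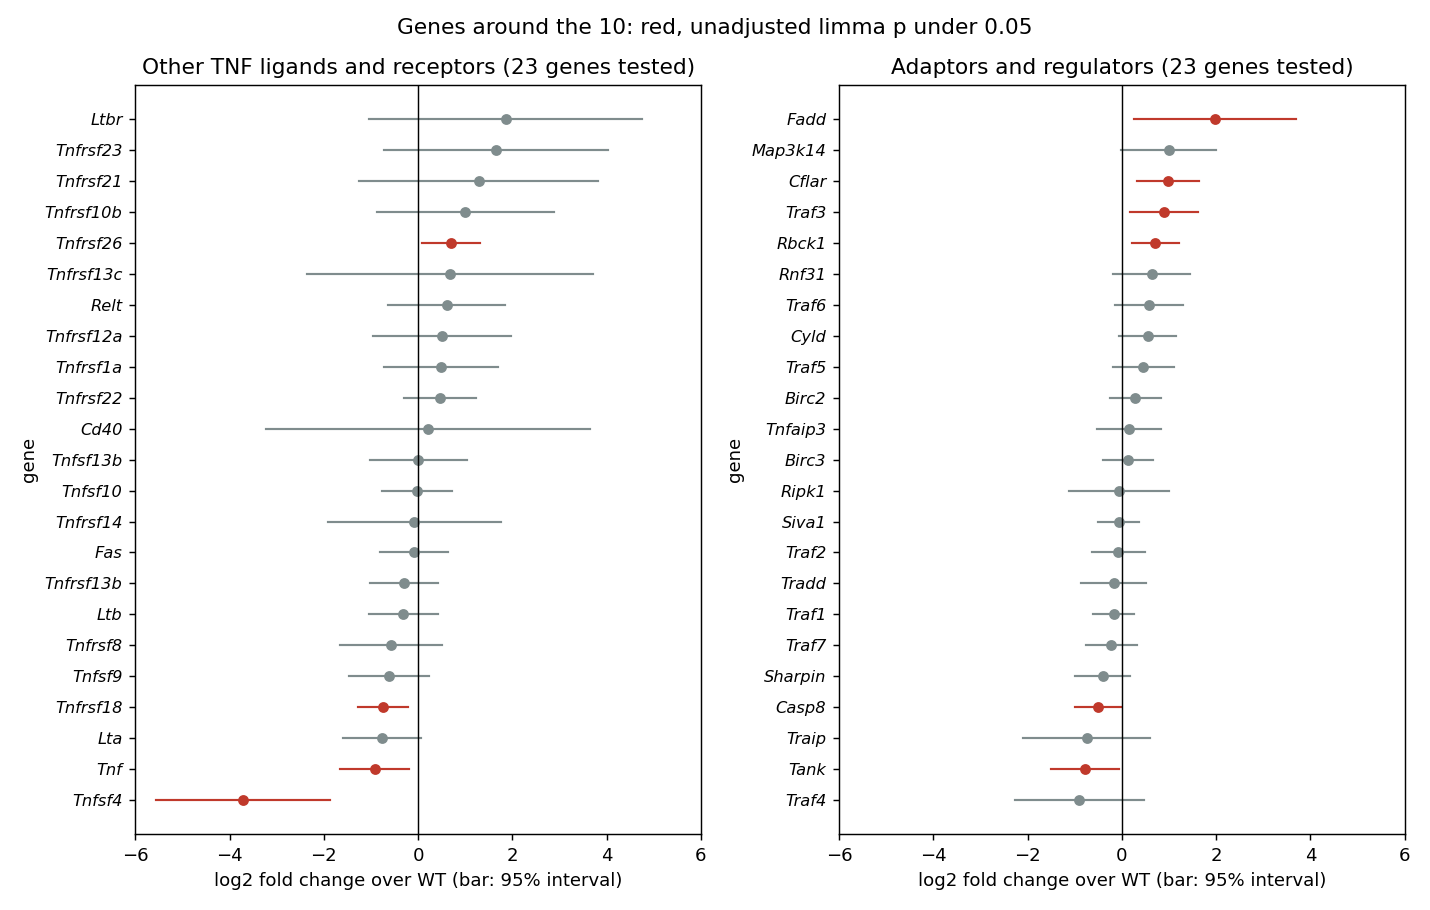
Log2 ratios (horizontal axis, libraries labelled Bach2-deficient over WT) with 95% confidence intervals of 23 other TNF ligands and receptors (left) and 23 adaptors and regulators (right), in limma on 6 libraries. Red marks the 4 and the 6 genes with an unadjusted p under 0.05, and *Tnfsf4* lies lowest, at -3.71.

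Markers of other cell types were summed in each library, among them B cells, which the B220- gate should remove. The 7 markers of ILC and Th17 cells summed to 1491, 665 and 441 normalized counts in WT and to 244, 162 and 140.1 in the libraries labelled Bach2-deficient, and of 6 tested 3 were lower and 1 higher at an unadjusted p under 0.05. This list was lower together with *Tnfrsf4*, *Tnfrsf9* and *Tnfsf4*, and was highest in WT replicate 1, where these genes were highest too. Its most abundant gene was *Ccr6*. *Il17f* was at 645, 183 and 64.5 in WT and at 13.3, 4.02 and 5.11 in the other group, and the 1 that was higher was *Kit*, at 5.05, 19.1 and 9.36 against 57.6, 50.9 and 32.7. *Il17a*, *Il22* and *Il23r* were each at 0 in a library. The 10 B cell markers summed to 242, 846 and 596 in WT and to 463, 412 and 365 in the other group, with 1 of 7 tested lower and *Cd79b* the most abundant. Among these markers *Ebf1*, *Fcer2a*, *Cr2* and *Blk* were each at 0 in a library. *Tnfsf4* was highest in WT replicate 1, where the B cell list was lowest.

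The 12 myeloid and dendritic cell markers summed to 5715, 12594 and 7207 normalized counts in WT and to 5272, 10007 and 4505 in the other group, with 1 of 10 tested lower. *Cst3* was their most abundant gene, and *Itgam* and *S100a9* were each at 0 in a library. The 6 plasma cell markers summed to 2199, 30490.4 and 8650.3 in WT and to 3673, 1901 and 1846 in the other group, with 1 of 5 tested lower, *Sdc1* at 0 in a library, and *Jchain* at 28803 in WT replicate 2. Of 7 stromal markers 6 had values and 2 were tested, neither with an unadjusted p under 0.05. They summed to 532 to 671 in WT and to 558 to 707 in the other group, with *Pecam1* the most abundant and *Col1a1*, *Col1a2*, *Pdgfrb* and *Cdh5* at 0 in a library. The part of these cell types in the values of *Tnfsf4* and *Cd40* was not tested.

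Lists for the state of the T cells were summed too. The 11 immediate early markers summed to 4683, 4826 and 5147 normalized counts in WT and to 4288, 4568 and 4772 in the other group, with 1 of 9 tested higher, and *Cd69*, the most abundant, was at 1635, 2664 and 2667 against 1374, 1604 and 1876. The gene that was higher was *Egr1*, at 131, 325 and 395 in WT and at 808, 729 and 640.3 in the other group. The 6 naive T cell markers summed to 10387, 10148 and 8484 in WT and to 12053, 10853 and 10654 in the other group, with 1 higher, 1 lower and *Tcf7* the most abundant. The 8 proliferation markers summed to 20812, 9981 and 15641 in WT and to 12234, 9667 and 13787 in the other group, with 1 higher, 2 lower and *Pcna* the most abundant. *Icos*, a further receptor of T cell help, was at 2547, 4079 and 4953 in WT and at 1675, 1439.9 and 2511 in the other group, lower without overlap. Their part in the *Cd40lg* values was not tested.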

How the data were processed

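The deposited signal is a normalized read count: the authors counted reads per gene and divided each library by a size factor. Sources differ on the aligner. The study's methods name Tophat2 with HTSeq, and the submitters' processing notes name STAR 2.5.2b, DESeq2 1.20.0 and R 3.5.1 with GRCm38 or mm10. Whether counting used strand is not given in the sources used here, nor is how genes were chosen for the table.

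Values were tested in R 4.3.3 with limma 3.58.1, with a trended variance, on log2(normalized count + 1) over 11296 genes with at least 10 in at least 3 libraries, with Benjamini-Hochberg adjustment over all of them. A log2 ratio is a difference of group means on that scale, which makes ratios of low genes too small. The thresholds are the study's. In each library 100.0% of values were whole multiples of a step, within 0.01, so whole reads were recovered for 5 libraries, 2 WT and 3 labelled Bach2-deficient, and tested with edgeR 4.0.16 and DESeq2 1.42.0. WT replicate 1 was left out of these tests: its values were whole multiples of a step too, but the rule used for recovered reads accepts no step as near a power of 10 as 1.01. PCR copies were not told apart. Other pseudocounts, filters, scalings and variance models, library weights, a length and GC trend, each library left out in turn and a replicate block were tried.

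Transcript lengths, GC content and positions are those of GENCODE M21 on GRCm38, by the longest transcript, with 14329 genes matched by symbol and 261 by an older symbol. The labels do not say whether libraries came from separate animals, so p-values measure the spread between these samples. The procedures were tested on simulated data. Genes named were the members, 13 partners that bind them, up to 10 others of the family and adaptors with the smallest unadjusted p under 0.05, *Bach2*, and of each marker list the most abundant gene and those at or near 0. *Cxcr5*, *Pdcd1*, *Cd4*, *Cd44*, *Eomes*, *Prf1*, *Cd3e*, *Il17f*, *Kit*, *Foxp3*, *Ctla4*, *Icos*, *Egr1*, *Traf5*, *Cd8a*, *Cd8b1* and *Gzmb* were named after their values were seen. The values of a further marker gene are not reported here. Members and lists were chosen with earlier results of these data known.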

Additional observations from a re-analysis of the deposited data

How the results depend on the processing

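*Tnfrsf4* and *Tnfrsf9* were lower at an unadjusted p under 0.05 in all 18 other fits tried, and 18 of the 22 genes with a reported log2 ratio kept their sign in all of them. Leaving out each of the 6 libraries in turn, *Tnfrsf4* ran from -1.33 to -0.92 (limma adjusted p 0.0385 to 0.501) and *Tnfrsf9* from -2.06 to -1.33 (0.0507 to 0.501).

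Members past the thresholds were 0 in limma and edgeR, 1 in DESeq2 on 5 libraries, 3 with library weights, and 0 with any library left out. At an unadjusted p under 0.05, members higher were 1, but 2 with quantile normalization, 0 with no variance trend, and 0 to 1 by leave-one-out (0 without WT replicate 2). The gene changed, being *Tnfsf11* in limma on all 6 libraries and *Tnfrsf1b* in edgeR, in DESeq2 and with library weights. It was *Tnfrsf1b* too without WT replicate 1 and without replicate 3 labelled Bach2-deficient. Members lower were 2, but 5 in edgeR and in DESeq2, 4 with library weights, and 2 to 4 by leave-one-out (4 without WT replicate 1). Other TNF genes higher were 1, but 2 with no filter and with library weights, 0 with no variance trend, in edgeR and in DESeq2, and 0 to 1 by leave-one-out. Other TNF genes lower were 3, but 4 with quantile normalization, 9 with library weights, and 2 to 5 by leave-one-out. Adaptors higher were 4, but 5 with quantile normalization, in edgeR and in DESeq2, 10 with library weights, and 2 to 5 by leave-one-out. Adaptors lower were 2, but 0 with quantile normalization, with no variance trend and after removal of the length and GC trend, 1 in edgeR and DESeq2, 5 with library weights, and 0 to 3 by leave-one-out. With library weights 22.8% of all genes were lower and 24.3% higher at this level, against 10.2% and 10.1% in limma without them. In limma on all 6 libraries, at an adjusted p under 0.05 with no minimum fold in place of these levels, each count of members, other TNF genes and adaptors was 0.

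The members' median of 0.23 was -0.075 with quantile normalization, -0.30 in edgeR, -0.32 in DESeq2, -0.34 with library weights, and -0.27 to 0.40 by leave-one-out. *Fasl*, at 0.81, was at -0.11 with quantile normalization, -1.13 in edgeR, -1.15 in DESeq2, -0.42 with library weights, and -1.25 to 1.95 by leave-one-out. *Tnfrsf25*, at 0.075, was at -0.039 with quantile normalization, -0.099 in edgeR, -0.12 in DESeq2, -0.11 with library weights, and -0.054 to 0.33 by leave-one-out. *Tnfsf14* was at -0.25 with library weights, and *Cd40lg* at 0.043 after removal of the length and GC trend. The cause was not tested.

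Replicate numbers are not said to pair the samples. Same-numbered libraries deviated from their group means with correlations across genes of -0.069, 0.116 and -0.039. With so few libraries per group, these values cannot settle whether the samples were paired. With a replicate block, 0 members passed the thresholds, 1 was higher and 2 were lower at an unadjusted p under 0.05, and the smallest adjusted p was 0.219. Counting error weighs most, relative to the value, on low values such as *Fasl* in WT replicate 1 and *Tnfsf4* in the libraries labelled Bach2-deficient. Replicates 1, 2 and 3 labelled Bach2-deficient, with 5045131, 10987752 and 7197242 recovered reads, had *Tnfsf4* at 4.43, 23.5 and 7.16. WT replicates 2 and 3, with 6585742 and 7823717, had *Tnfsf4* at 86.4 and 71.7 and *Fasl* at 168 and 124. WT replicate 1, with *Fasl* at 1.01, would have 7737531 reads if its step were 1 read. Whether depth set these low values was not tested.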
